A study of Homo sapiens with 6 samples.

Results

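The genes for contractile and cytoskeletal proteins that smooth muscle cells are known for, 10 with the transcription factor SRF included, were examined in PC-3 cells depleted of CdGAP. The genes were taken by their symbols (ACTA2, ACTG2, TAGLN, CNN1, MYL9, TPM1, TPM2, CALD1, VCL and SRF), and all 10 were found among the 64253 genes of the deposited count tables. PC-3 is an established human cell line from a castration-resistant prostate cancer, and CdGAP, the product of ARHGAP31, is a GTPase-activating protein that switches off the small GTPases Rac1 and Cdc42. RNA was sequenced from 3 samples of PC-3 cells carrying a lentiviral short hairpin RNA against CdGAP (shCdGAP, labelled shCDGAP) and from 3 samples carrying a control hairpin (shCon, labelled shCONTROL). According to the methods, the CdGAP-depleted PC-3 cells were selected with puromycin and grown as single-cell clones, which is not stated for the control cells, so a difference between a clone and the control population cannot be told apart from an effect of the hairpin. The question for these genes was whether the smooth-muscle-type contractile program differed between the groups.

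As background, SRF binds a short DNA element called the CArG box, and it drives different genes with different partners. With myocardin it turns on the contractile genes of smooth muscle. With the related cofactors MRTFA and MRTFB, which are held in the cytoplasm by unpolymerised actin and released when actin assembles into filaments, it drives cytoskeletal genes in many cell types. With the ETS factors of the ELK family it drives immediate early genes such as the EGR family. ACTA2, TAGLN and CNN1 are used in tumours as markers of smooth muscle and of activated stromal cells, whereas VCL, CALD1 and the tropomyosins also serve the actin cytoskeleton of epithelial cells.

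The libraries held 33182796 to 43154039 counts, which are read pairs according to the file headers. ARHGAP31 stood at 26.8 ± 0.351 CPM (counts per 1000000 on TMM-scaled library sizes, SD, n = 3) in shCdGAP and 59.2 ± 1.22 in shCon cells, with a log2 fold change of -1.14 by edgeR. Counts of shCdGAP replicate 2 stood apart from those of its group, with a chi-square per degree of freedom of 26.6 and 32.7 against the other replicates, where all other pairs of one group gave 2.58 to 6.89. The epithelial keratins KRT8 (193 ± 9.44 and 185 ± 1.30 CPM) and KRT18 (270.3 ± 24.5 and 253 ± 3.91 CPM) were abundant in shCdGAP and shCon cells. The defining markers of smooth muscle were not: MYOCD had 0 reads in all 6 libraries, where 3 reads would have been 0.0689 to 0.0908 CPM, and MYH11, DES and LMOD1 had at most 6 reads in any library. The 4 smooth muscle markers summed to 0.0740 to 0.298 CPM per shCdGAP library and 0.0474 to 0.121 CPM per shCon library. These are therefore genes of a smooth-muscle-type program measured in epithelial cancer cells in which its most specific transcripts were at or near 0.

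The 10 genes did not move as a group in CdGAP-depleted cells. CALD1, VCL and ACTA2 rose, SRF and TPM1 fell, and TPM2, MYL9 and TAGLN did not pass the test. ACTG2 and CNN1 had too few reads for it. Of the 8 genes tested, 3 were higher and 2 lower at an adjusted p-value under 0.01 by edgeR's quasi-likelihood test, and none had an absolute log2 fold change above 1. Among all 16439 genes tested, 24.1% were higher and 22.0% lower at that threshold (46.2% in either direction), and the counts of these genes do not set them apart from that background. With the fold limit, 8.56% of all genes were called higher and 4.19% lower. On the log2 scale, the median change was 0.19 for the 8 genes and 0.01 for all genes. All 3 shCdGAP libraries lay above all 3 shCon libraries for 4 of the 8 genes and below them for 3, and the same held for 34.4% and 32.7% of all tested genes. Without shCdGAP replicate 2 the counts were 3 higher and 3 lower, the added gene being ACTG2. It then passed the filter only through the shCon libraries, where it was higher, so its lower call was favoured in advance.

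**Figure D1:**
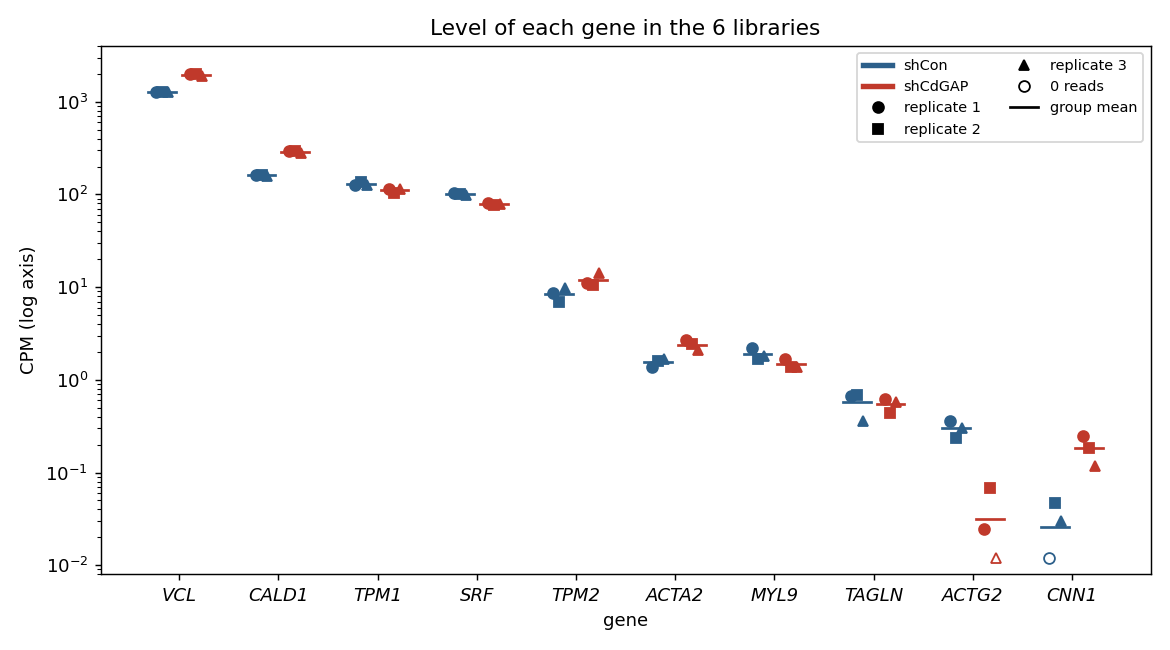
Level of each of the 10 genes in CPM, on a log axis, in each shCon (blue) and shCdGAP (red) library, with bars at the group means and open symbols at the bottom for libraries with 0 reads. VCL lies at 1260.5 CPM or above and ACTG2 and CNN1 lie below 1 CPM in all 6 libraries.

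The genes spanned a wide range of levels. Per kilobase of exon, VCL was the most abundant, at 195 ± 4.35 RPKM in shCdGAP and 126 ± 0.350 in shCon cells (SD, n = 3 each), and ranked 182 of 16439 tested genes. CALD1 (29.4 and 16.3 RPKM in shCdGAP and shCon), SRF (18.8 and 24.2) and TPM1 (8.94 and 10.5) followed, then TPM2 (2.95 and 2.09). The markers of contractile smooth muscle stood at the bottom. ACTA2 had 0.792 and 0.514 RPKM, MYL9 0.523 and 0.672, TAGLN 0.139 and 0.146, and ACTG2 and CNN1 were below 0.1 RPKM in both groups. The order of neighbouring genes was separated in every library of a group, with the exception of TAGLN and ACTG2 in shCon cells, whose libraries overlapped. SRF stood above CALD1 in shCon cells and below it in shCdGAP cells, and MYL9 and ACTA2, like ACTG2 and CNN1, also traded places.

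SRF itself (ENSG00000112658, GRCh38 chromosome 6 from 43171299 to 43181507), the DNA-binding factor of the program, fell. It had 81.3, 76.98 and 78.85 CPM in shCdGAP replicates 1, 2 and 3 and 104, 102 and 99.6 CPM in the shCon replicates. The groups did not overlap. Its log2 fold change was -0.37 (standard error, SE, 0.0387, edgeR adjusted p = 4.92e-05), a decrease of 22.4%, and it lay between -0.40 and -0.34 under all alternatives. The mRNAs of the actin-sensing cofactors gave values near those of the controls. MRTFA had 29.8 ± 2.05 CPM in shCdGAP and 28.4 ± 0.594 in shCon cells (log2 fold change 0.07, adjusted p = 0.364), and MRTFB 46.7 ± 1.33 and 43.9 ± 2.02 CPM (log2 fold change 0.09, adjusted p = 0.139, SD, n = 3 each). Neither passed the test. Their activity depends on where the proteins are in the cell, which mRNA levels do not measure.

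The actin genes of smooth muscle moved in opposite directions at very low levels. ACTA2, the alpha actin of vascular smooth muscle (ENSG00000107796, chromosome 10 from 88935074 to 88991390), gave 109, 105 and 72 reads in shCdGAP replicates 1 to 3 and 58, 67 and 56 in the shCon replicates. This was 2.69, 2.41 and 2.09 CPM against 1.38, 1.59 and 1.69 CPM, so every shCdGAP library lay above every shCon library. Of the ACTA2 exon bases, 31.3% overlap ACTA2-AS1 or FAS on the other strand, and the counting used strand. The log2 fold change was 0.63 (SE 0.156, edgeR adjusted p = 0.00697). The call was not stable. ACTA2 did not pass 0.01 by DESeq2 (adjusted p = 0.0168), with the replicate number as a block (0.0164), or without shCdGAP replicate 1 or any of the 3 shCon replicates (0.0167 to 0.0402), and its lowest adjusted p among the alternatives was 0.00180, without shCdGAP replicate 2.

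ACTG2, the gamma actin of visceral smooth muscle (ENSG00000163017, chromosome 2 from 73892314 to 73919865), was close to the limit of detection. It had 15, 10 and 10 reads in the shCon libraries and 1, 3 and 0 in the shCdGAP libraries. Scaled to library size, the 35 pooled shCon reads against 4 pooled shCdGAP reads gave a level 8.84-fold higher in shCon cells, with an exact interval for counting error alone of 3.16 to 34.3 (95% confidence). The groups did not overlap, but an exact two-sided permutation test of 3 against 3 libraries cannot go below p = 0.1, which is the value found. Where another filter or tool let the gene into the fit, edgeR gave an adjusted p of 2.01e-05 without a filter and DESeq2 one of 0.00399. Without shCdGAP replicate 1 it passed the filter through the shCon libraries alone, and edgeR gave an adjusted p of 0.0119.

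The promoters of ACTG2, ACTA2 and SRF are shown. Those of ACTG2 and SRF hold the exact CArG boxes found among these genes, and that of ACTA2 is for comparison of the smooth muscle actins. The stretches are the 140 bases before the annotated start, from RefSeq (GRCh38.p14), at chr2:73892868-73893007 on the plus strand, chr10:88952774-88952913 on the minus strand and chr6:43171129-43171268 on the plus strand. Capitals mark the CArG boxes of ACTG2 and SRF and, in ACTA2, the matches that differ from the CArG box at 1 base.
ACTG2: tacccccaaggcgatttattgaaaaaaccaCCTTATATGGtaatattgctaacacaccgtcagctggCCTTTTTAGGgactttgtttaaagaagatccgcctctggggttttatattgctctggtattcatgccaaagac
ACTA2: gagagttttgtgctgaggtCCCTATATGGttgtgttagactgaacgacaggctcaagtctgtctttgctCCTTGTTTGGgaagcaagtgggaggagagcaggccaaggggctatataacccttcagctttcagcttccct
SRF: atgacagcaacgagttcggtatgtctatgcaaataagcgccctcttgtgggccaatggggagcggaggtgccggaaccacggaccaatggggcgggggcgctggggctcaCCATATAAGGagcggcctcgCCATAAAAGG

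In these windows, 250 bases before to 50 after each start, ACTG2 had CArG boxes beginning 110 and 73 bases before the start and SRF had them 30 and 10 bases before it. ACTA2 had matches with 1 base different 121 and 71 bases before its second annotated start, and CALD1 had 1 such match in each of 2 windows, 244 and 26 bases before the start. The CALD1 window with the match at 26 bases, chr7:134711249-134711548, lies outside the counted gene, which begins at 134744252. Of the 8 genes matched to a promoter window (TAGLN and MYL9 were not), 2 held a CArG box in at least 1 window, and so did 438 (1.604%) of the 27305 genes with a window. The looser match was present in 4 of the 8 genes and in 22.3% of all genes. The ETS core CCGGAA, searched on both strands as all motifs were, lay 70 bases before the SRF start and 75 bases before that of TPM1, and occurred in 20.1% of all genes. The TPM1 window, chr15:63048239-63048538, lies inside the counted gene, which runs from 63042632 to 63071915. The element CATTCC (called MCAT), which TEAD factors are known to bind, was found in ACTA2, CALD1 and VCL and in 16.7% of all genes. CNN1 and TPM2 had none of these motifs in their windows. A CArG box here means an exact match to CC, then only A or T, then GG, over 10 bases. The 2 genes with such a match, SRF and ACTG2, both had lower values in shCdGAP cells, ACTG2 with at most 15 reads in any library. ACTA2 and CALD1, with only the looser matches, had higher values, and the ACTA2 call was not stable. All tested genes with a CArG box in the other gene lists below are named here, after their values were seen. FHL2, SMTN, MYLK, FLNA, TPM4, LPP, SVIL, TGFB1I1 and EGR2 were higher at an adjusted p under 0.01 by edgeR. ACTN1 and FHL1 were lower, and ACTG1 and CNN2 did not pass. Over all tested genes, 24.1% were higher and 22.0% lower. Whether motif and direction go together was not tested. A match of letters describes the sequence and does not show binding. Lack of an exact match does not show that SRF fails to bind.

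**Figure D2:**
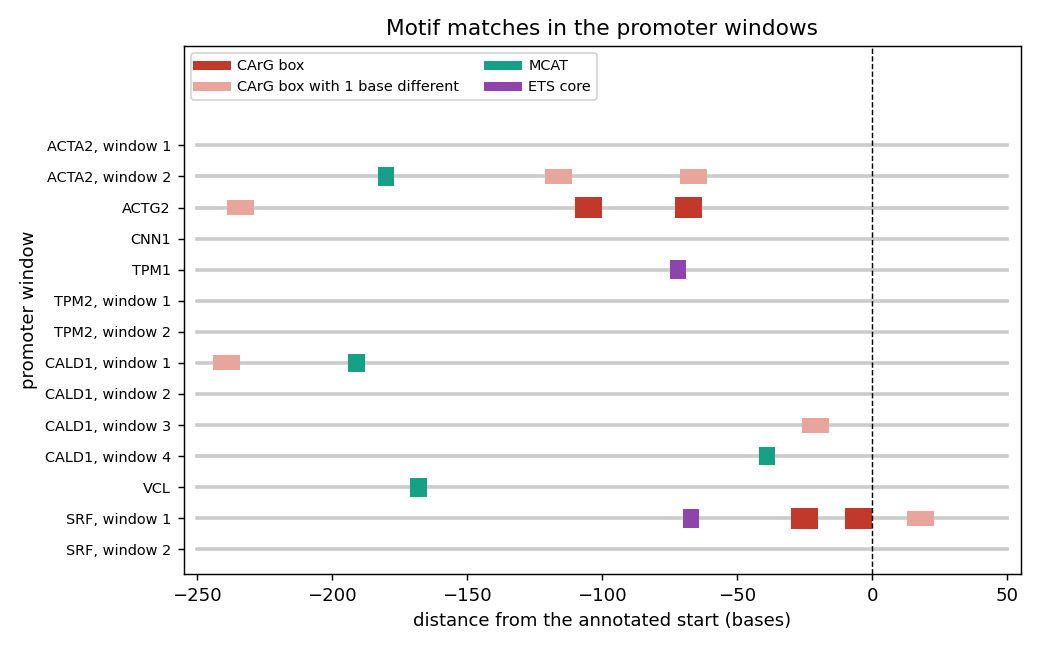
Positions of motif matches in each RefSeq promoter window, in bases from the annotated start (dashed line), with grey lines for the windows searched and 1 row for each window. ACTG2 and SRF each hold 2 CArG boxes (dark red), and the matches of ACTA2 and CALD1 differ at 1 base (light red).

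Among the actin genes as a family, the smooth muscle forms were a trace. ACTA2 and ACTG2 together made up 0.0330 ± 0.00464% of the reads per kilobase of 6 actin genes in shCdGAP and 0.0278 ± 0.00228% in shCon cells (SD, n = 3 each, exact two-sided permutation p = 0.2). That summed share overlapped between the groups. The share of ACTA2 alone did not, at 0.0277% to 0.0358% in shCdGAP and 0.0217% to 0.0266% in shCon libraries, and that of ACTG2 was higher in shCon cells (0.00370% against 0.000348% in the mean). ACTB, a cytoplasmic actin, had 4035 ± 208 CPM in shCdGAP and 3071 ± 51.6 in shCon cells (log2 fold change 0.39, standard error 0.0431, adjusted p = 6.16e-05). ACTG1, the other cytoplasmic actin, had 3537 ± 128 and 3523 ± 76.7 CPM (log2 fold change 0.01, adjusted p = 0.913). Within the libraries, ACTB took 51.0 ± 0.464% of actin in shCdGAP and 44.3 ± 0.229% in shCon cells, and ACTG1 took most of the rest. The striated muscle actins ACTA1 and ACTC1 had at most 17 reads in any library.

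The genes of thin filament proteins split by gene. CALD1, which encodes caldesmon, a protein that binds actin and calmodulin and restrains myosin (ENSG00000122786, chromosome 7 from 134744252 to 134970728), rose the most of the 8 genes tested. It had 293, 295 and 280.2 CPM in shCdGAP replicates and 162, 161 and 159 CPM in shCon replicates, with no overlap. The log2 fold change was 0.85 (SE 0.0343, edgeR adjusted p = 1.57e-07), an increase of 80.2%. It lay between 0.83 and 0.88 under all alternatives.

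TPM1 and TPM2 encode tropomyosins, the coiled-coil proteins that lie along actin filaments. TPM1 (ENSG00000140416, chromosome 15 from 63042632 to 63071915) had 115, 105 and 115 CPM in shCdGAP and 127, 138 and 128 CPM in shCon libraries. The difference was small and the groups did not overlap. Its log2 fold change was -0.23 (SE 0.0513, edgeR adjusted p = 0.00437), a decrease of 14.6%. It did not pass 0.01 with the replicate block (adjusted p = 0.0117), without shCon replicate 2 (0.0188) or without shCon replicate 3 (0.0111), and the lowest value among its alternatives was 3.01e-06.

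TPM2 (ENSG00000198467, chromosome 9 from 35681992 to 35691020) had 10.98, 10.5 and 14.3 CPM in shCdGAP and 8.70, 6.89 and 9.84 CPM in shCon libraries. The shCdGAP libraries lay above the shCon libraries, with a wide spread in both groups. Its log2 fold change of 0.50 (SE 0.156, edgeR adjusted p = 0.0242) did not pass 0.01. It did pass by DESeq2 (0.00725), without a filter on low counts (1.92e-06) and with the replicate block (0.00214), and the highest adjusted p among its alternatives was 0.0893.

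Within the tropomyosin family, TPM3 and TPM4 made up most of the signal. TPM4 rose from 461 ± 9.18 to 549.6 ± 14.7 CPM (log2 fold change 0.25, adjusted p = 2.89e-04), and TPM3 had 573 ± 3.90 and 569.8 ± 13.1 CPM in shCdGAP and shCon cells (log2 fold change 0.01, adjusted p = 0.847). TPM1 and TPM2 together held 7.70 ± 0.458% of the reads per kilobase of the 4 genes in shCdGAP and 8.81 ± 0.173% in shCon cells (SD, n = 3 each). All 3 shCdGAP libraries lay below all 3 shCon libraries, with an exact two-sided permutation p of 0.1, the smallest this design can give. The share of TPM1 was 5.79 ± 0.227% against 7.33 ± 0.208% in shCon cells, and that of TPM2 1.91 ± 0.311% against 1.47 ± 0.284%. Counts per gene do not separate the muscle and non-muscle isoforms that these genes, and CALD1, make by alternative exons.

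**Figure D3:**
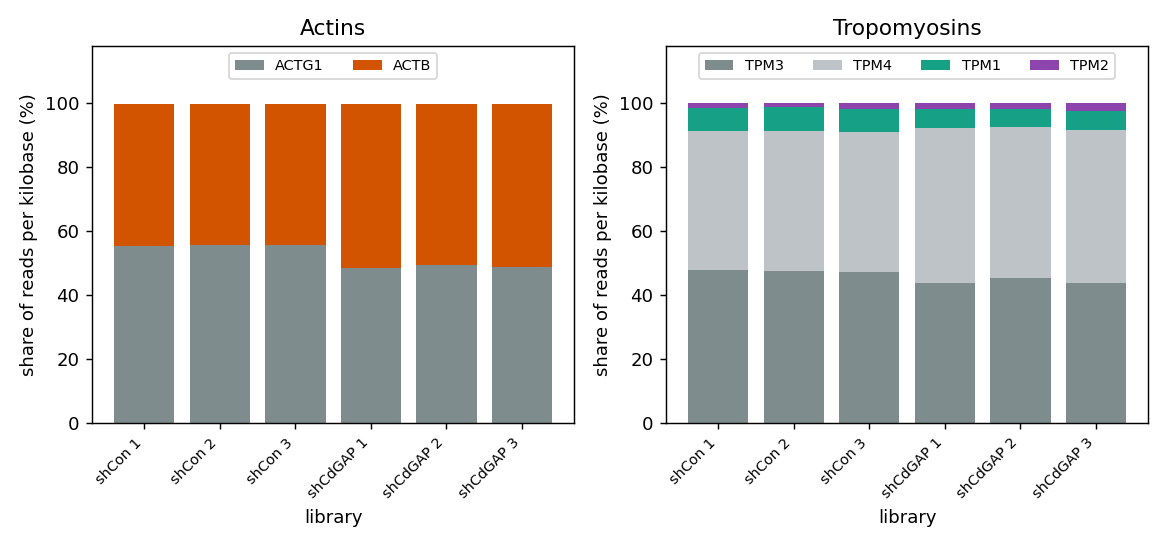
Share of each gene in the reads per kilobase of its family, in percent, for each library, with actins at the left and tropomyosins at the right. ACTB takes 50.5% to 51.5% of actin with the CdGAP hairpin and 44.2% to 44.6% with the control hairpin, and the other 4 actins are too low to be drawn.

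CNN1, calponin, which binds actin and tropomyosin in differentiated smooth muscle (ENSG00000130176, chromosome 19 from 11538717 to 11550323), gave 10, 8 and 4 reads in shCdGAP replicates and 0, 2 and 1 in shCon replicates. The 22 pooled reads against 3 gave a ratio of 7.25, with an exact interval for counting error alone of 2.18 to 37.9 (95% confidence). The groups did not overlap (exact two-sided permutation p = 0.1, the smallest possible). Its mean CPM in the higher group was 0.182 ± 0.0651, so this is a difference among a handful of reads. Without a filter edgeR gave CNN1 an adjusted p of 0.00228 and DESeq2 one of 0.0406. TAGLN, transgelin, an actin-bundling protein and early marker of smooth muscle (ENSG00000149591, chromosome 11 from 117199321 to 117204782), gave 25, 19 and 20 reads in shCdGAP replicates and 28, 29 and 12 in shCon replicates. Those groups overlapped. Its log2 fold change was -0.11 (SE 0.288, edgeR adjusted p = 0.770), and its sign turned when shCdGAP replicate 2 or shCon replicate 2 was left out, with values of 0.02 in both cases.

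The myosin side of the contractile apparatus was represented by MYL9, the regulatory light chain of smooth muscle myosin (ENSG00000101335, chromosome 20 from 36541484 to 36551447). It gave 68, 60 and 47 reads in shCdGAP replicates and 92, 71 and 60 in shCon replicates, or 1.68, 1.38 and 1.37 CPM against 2.19, 1.68 and 1.82 CPM. The groups were separated by a narrow margin. The log2 fold change of -0.36 (SE 0.168, edgeR adjusted p = 0.0918) did not pass 0.01, nor did any alternative, with adjusted p from 0.0648 to 0.283.

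VCL, vinculin, which links integrin adhesions and cadherin junctions to actin (ENSG00000035403, chromosome 10 from 73995193 to 74121363), rose from a level that was already high. It had 1973, 1969 and 1896 CPM in shCdGAP replicates and 1260.5, 1262 and 1267 CPM in shCon replicates. The groups were far apart compared with the spread within them. The log2 fold change was 0.62 (SE 0.0329, edgeR adjusted p = 7.02e-07), an increase of 54.1%, and it lay between 0.60 and 0.65 under all alternatives. Among the 10 tested genes nearest to VCL, examined after its value was seen, 9 had higher values in shCdGAP cells, and the log2 fold changes ranged from -0.10 to 0.84 around a median of 0.37. PLAU, the urokinase gene and the most abundant of these neighbours, had 1329 and 776 mean CPM and a log2 fold change of 0.78, while KAT6B had -0.10. The part of a regional difference in the change of VCL was not tested.

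**Figure D4:**
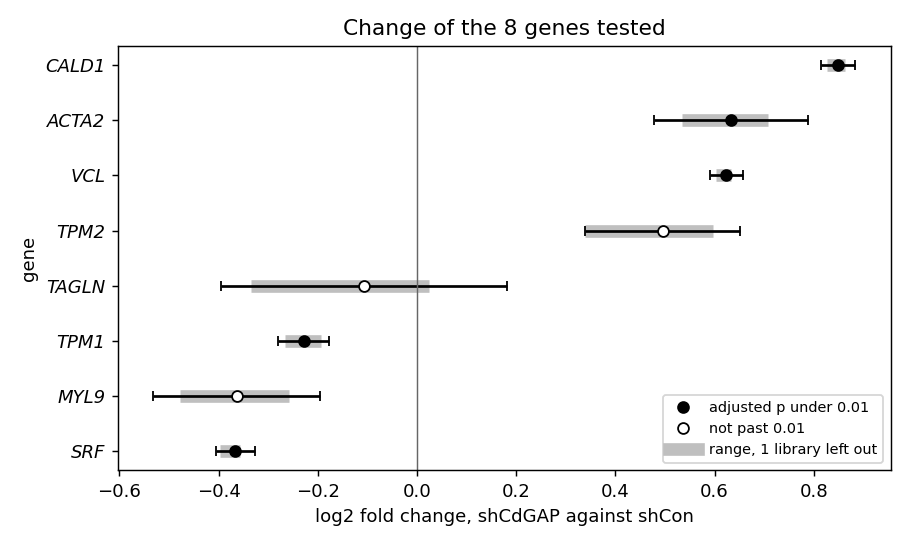
Log2 fold change of the 8 genes tested, shCdGAP against shCon, with standard errors (black bars) and the range of values over the fits that omit 1 library each (grey bars). CALD1, ACTA2 and VCL lie above 0.5 and SRF and TPM1 below 0, and TAGLN has a standard error that spans 0.

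The other genes of the SRF and actin pathway were counted from 4 lists. The clearest movement was in other genes of smooth muscle contraction, of which 11 of 20 had enough reads to be tested. Of these 11, 8 were higher and 1, PGM5, was lower at an adjusted p under 0.01, against 24.1% and 22.0% of all genes. Their median was 1.12 on the log2 scale against 0.01 for all genes. Of the 8, AOC3, named after its values were seen, had 5, 5 and 9 reads in shCon replicates 1 to 3. It passed the filter only through the shCdGAP libraries, so its higher call was favoured in advance. Without shCdGAP replicate 2, 8 were again higher, and 6 were with at least 10 reads in every library. DES, PLN, CASQ2, KCNMB1, PPP1R14A and ITGA8 had at most 3 reads in every library. FLNC, which encodes the crosslinking protein filamin C, rose from 35.8 ± 1.44 to 116 ± 3.76 CPM (log2 fold change 1.69, standard error 0.0455, adjusted p = 2.46e-08 by edgeR). MYLK, the kinase that phosphorylates the myosin light chain, rose from 13.4 ± 0.152 to 29.5 ± 2.76 CPM, a log2 fold change of 1.14. SMTN, smoothelin, rose from 82.5 ± 2.75 to 179 ± 15.9 CPM (log2 fold change 1.12), and PDLIM3, a LIM protein of the actin cytoskeleton, from 1.42 ± 0.155 to 4.52 ± 0.827 CPM (log2 fold change 1.67). MYLK and SMTN were the 2 genes of this list with a CArG box in a promoter window, among 15 with a window.

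The cytoskeletal targets attributed to SRF and the MRTF cofactors moved in both directions. Of 29 tested genes, 11 were higher and 8 lower, against 24.1% and 22.0% of all tested genes. The median change was 0.01 on the log2 scale. ITGA5, the fibronectin receptor subunit, rose from 17.7 ± 0.689 to 85.3 ± 19.7 CPM (log2 fold change 2.27, adjusted p = 4.27e-05 by edgeR). TGFB1I1, a focal adhesion adaptor known as Hic-5, rose by a log2 fold change of 1.31 and LIMA1, which stabilises actin filaments, by 0.96. FHL1, a LIM-only protein, fell from 82.7 ± 2.65 to 41.3 ± 10.1 CPM, a log2 fold change of -0.999. A CArG box was present in a promoter window of 10 of the 28 genes with a window. Of these, FLNA, TPM4, LPP, SVIL and TGFB1I1 were higher and ACTN1 and FHL1 lower. ACTG1 and CNN2 did not pass, and FILIP1L was not tested.

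Of the partners and modulators of SRF, 10 of 12 were tested, 4 were higher and 1 was lower, around a median of 0.16 on the log2 scale. Over all tested genes, 24.1% were higher and 22.0% lower. CSRP2, a LIM protein that works with SRF in smooth muscle, rose from 15.2 ± 0.610 to 32.8 ± 3.47 CPM (log2 fold change 1.12, adjusted p = 4.63e-06 by edgeR). Its relative CSRP1 rose by a log2 fold change of 0.45 and FHL2, a LIM-only coregulator of SRF, by 0.56. SCAI, a protein that restrains MRTF activity, fell from 32.6 ± 0.620 to 19.1 ± 1.00 CPM (log2 fold change -0.77, adjusted p = 4.11e-06). SCAI lies on chromosome 9, where 9 of its 10 nearest tested genes also had lower values, and the median of the 10 was -0.55 on the log2 scale. What part a regional difference had in the change of SCAI was not tested.

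The immediate early genes that SRF drives with ELK factors were called in both directions. Of 7 tested, 2 were higher and 2 lower, shares close to the 24.1% and 22.0% of all genes. EGR2 rose from 1.08 ± 0.101 to 6.20 ± 1.88 CPM (log2 fold change 2.52) and NR4A1 from 2.19 ± 0.0691 to 6.78 ± 1.30 CPM (log2 fold change 1.63), while IER2 fell by 0.42 and MCL1 fell by 0.26 on the log2 scale, all with adjusted p under 0.01 by edgeR. EGR1, EGR3 and EGR4 had at most 3 reads in every library. Without shCdGAP replicate 2, 4 genes of this list were lower, and the lower calls over all genes went from 3624 of 16439 to 5022 of 16727.

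**Figure D5:**
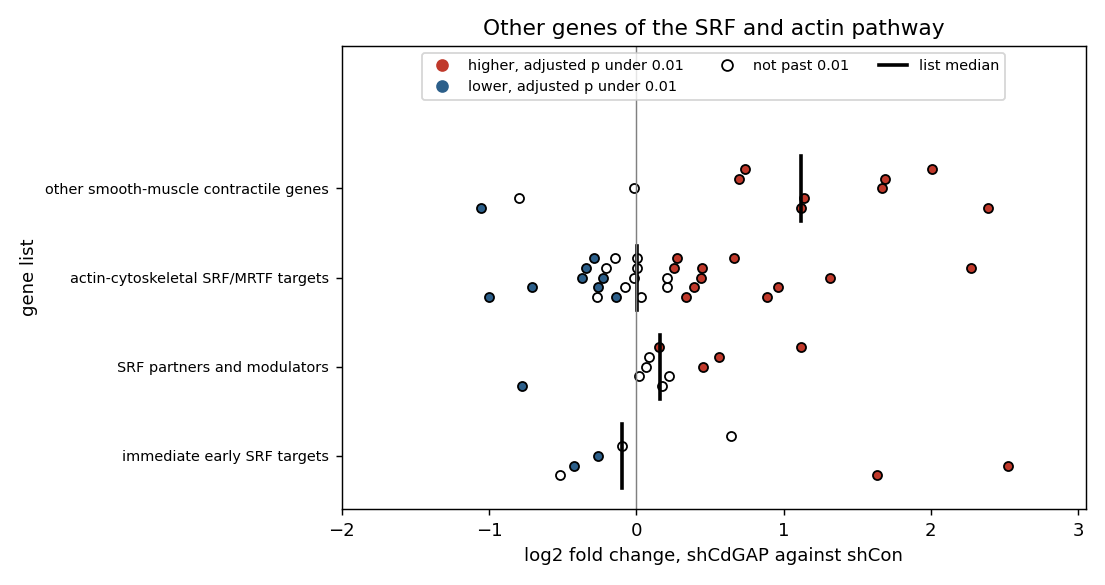
Log2 fold change (shCdGAP against shCon) of every tested gene in 4 lists, filled where the adjusted p was under 0.01 (red for higher, blue for lower), with a black line at each list's median. The other smooth-muscle contractile genes have a median of 1.12 and the remaining lists lie between -0.10 and 0.16.

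Markers of other cells gave these values beside the genes above. Of 5 fibroblast markers, PDGFRA, PDGFRB and LUM were tested and had higher values in shCdGAP cells. PDGFRB (4, 7 and 2 reads in shCon replicates 1 to 3) and LUM (11, 9 and 6) passed the filter through shCdGAP libraries. The filter alone therefore favoured higher values for these genes. PDGFRA had 7.20, 18.7 and 7.30 CPM in shCdGAP replicates 1, 2 and 3. The 5 markers summed to 9.77 to 22.1 CPM in shCdGAP and 1.94 to 2.22 CPM in shCon libraries. DCN had at most 5 reads and THY1 at most 1 in any library. Of 3 leukocyte markers, CD68, a lysosomal protein of macrophages, was higher in shCdGAP cells (1.23 ± 0.116 against 0.418 ± 0.0347 CPM, log2 fold change 1.55, edgeR adjusted p = 1.53e-04), while PTPRC and CD3E had at most 3 reads in every library. The 3 summed to 1.15 to 1.38 CPM per shCdGAP library and 0.405 to 0.450 CPM per shCon library. Endothelial markers had lower values in shCdGAP cells where they had reads. PECAM1 had 3.69 ± 2.00 CPM in shCdGAP and 5.52 ± 0.0943 in shCon cells (log2 fold change -0.57, edgeR adjusted p = 0.181), and its groups overlapped. CDH5, which was not tested, gave 2, 3 and 2 reads in shCdGAP and 9, 10 and 7 in shCon replicates. VWF had at most 3 reads in every library. EPCAM, an epithelial adhesion protein, rose from 83.0 ± 1.35 to 212 ± 10.6 CPM. The part of such differences in the levels of the contractile genes was not tested.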

How the data were processed

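Total RNA of 6 PC-3 samples was sequenced. According to the methods and the file headers, reads were aligned to GRCh38 with STAR 2.5.1b and counted with featureCounts (1.6.0 in the headers, 1.4.6 in the methods) on Ensembl release 77, for read pairs with both ends mapped, by strand. The authors deposited raw counts per gene for each sample, without normalization. Pairs mapping to several places were not counted under these settings. Same-strand genes did not overlap the exons of these 10 genes.

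From the counts, edgeR 4.0.16 (R 4.3.3) was run with filterByExpr, TMM and a robust quasi-likelihood F test over 16439 genes, with Benjamini-Hochberg adjustment and a threshold of 0.01. Standard errors are the absolute log2 fold change over the square root of F. RPKM is CPM per kilobase of annotated exon. The methods call the 3 samples of each group independent without saying whether they were separate cultures, so p-values measure the spread between these samples. Intervals and floors (3 reads) cover counting error only. The genes and lists were chosen with earlier results of these data known. Named genes are the 10, ARHGAP31, the cofactors, the actin and tropomyosin families, and up to 4 genes per list with the largest change past the threshold and a mean of at least 1 CPM. Others are marked. A further list of upstream genes is not reported here. On simulated counts of 16439 genes drawn for this comparison, 98.5% of genes changed by a log2 fold change of 2 in size were called, 85.1% at 1 and 54.5% at 0.5. The simulation left 16239 genes unchanged and held no replicate that stood apart, whereas 46.2% of genes passed in the data. These shares are therefore not the detection rates of the real comparison. Alternatives were DESeq2 1.42.0, other scalings, filters and thresholds, fits without each library and a fit with the replicate number as a block.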

Additional observations from a re-analysis of the deposited data

How the results depend on the processing

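The directions and calls of CALD1, VCL, SRF and ARHGAP31 held in all 14 alternatives run for each, and MYL9 stayed short of 0.01 in all 14. Without a filter on low counts, 5 of the 10 genes were higher, since TPM2 and CNN1 then passed. Tested against a log2 fold change of 0.5 with glmTreat, 2 were higher and 0 lower. With each library left out in turn, 2 to 3 were higher and 1 to 3 lower, 2 to 4 immediate early genes were lower, and TAGLN ranged from -0.33 to 0.024 on the log2 scale, its sign turning without shCdGAP replicate 2 or shCon replicate 2. Of the 10 genes, 1 was lower without shCon replicate 3 and 3 were without shCdGAP replicate 2 or 3. The added gene was ACTG2 in both, let in by its shCon libraries. The count of 4 immediate early genes came without shCdGAP replicate 2. The share of TPM1 and TPM2 among tropomyosins differed by -1.11 percentage points per kilobase and by -1.98 in reads, which weight long genes more. Same-numbered samples of the groups deviated together only weakly (correlations from 0.0306 to 0.0499 over 16439 genes), although every sample correlated best with its own number, so no pairing was assumed. With the replicate number as a block, 3 genes were higher (TPM2 in place of ACTA2) and 1 lower (SRF), and 3808 of all genes were higher and 3421 lower, against 3963 and 3624. Depth limits what can be said of ACTG2, CNN1 and TAGLN, with at most 29 reads in any library.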

Other observations

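The 10 tested genes nearest to each of the contractile genes, examined after the values were seen, had median log2 fold changes of -0.20 for CNN1, -0.02 for ACTG2, 0.01 for TAGLN and MYL9, 0.09 for ACTA2, 0.17 for SRF, 0.23 for TPM2, 0.24 for CALD1 and 0.33 for TPM1. SRF and TPM1 fell among neighbours whose medians were above 0. What part regional differences had in the changes of these genes was not tested. Next to TPM1, the nuclear receptor gene RORA had 17.3 mean CPM in shCdGAP and 1.51 in shCon cells (log2 fold change 3.52, adjusted p = 1.54e-07 by edgeR), and TLN2, which encodes a talin that binds vinculin, had 31.9 and 15.8 mean CPM (log2 fold change 1.01, adjusted p = 2.06e-06).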
